A study of Mus musculus with 8 samples.

Results

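The caveolin locus on mouse chromosome 6 holds the genes for caveolin 1 and caveolin 2 in a row of neighbours, and 8 genes of this stretch were followed here out of the 34299 in the deposited table. They are Cav1, Cav2, Tes, Met, Capza2, St7 and Mdfic, which code for proteins, and Gm15581, an annotated antisense transcript. They were picked by name as neighbours of Cav1, with the fetal differences of several of them already known. The week 70 values of Cav1, Cav2 and Gm15581 were known as well. The fetal values below, and the age differences of Cav2 and Gm15581, are therefore a description and carry no test. The values come from bulk RNA-seq of polyadenylated RNA from whole mouse brain in 3 groups. Fetal brains at gestation day 15 gave 3 libraries of wild type (WT) and 3 of the Cav1 knockout (KO), and brains at week 70 gave 2 libraries of the Cav1 KO. The labels give no allele, strain, treatment or litter, and they do not describe how Cav1 was disrupted. They state biological replicates for the fetal brains. The week 70 libraries came from different animals, as their counts of Xist below show. The study set its week 70 brains against WT brains of an earlier study, which were not analysed here, so age is compared within the KO genotype alone.

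Caveolae are small flask-shaped pits of the plasma membrane, abundant in endothelial cells, smooth muscle and fibroblasts and sparse in neurons. Caveolin 1 is the membrane protein that builds their coat together with the cavins. Caveolin 2 joins caveolin 1 in mixed oligomers and depends on it to reach the cell surface, and without caveolin 1 the caveolin 2 protein is retained in the Golgi and degraded. That dependence concerns protein, which RNA-seq does not measure. The neighbours have other tasks: Tes codes for testin, a LIM-domain protein of focal adhesions; Met for the receptor of hepatocyte growth factor; and Capza2 for a subunit of the capping protein that closes the barbed ends of actin filaments. Mdfic codes for a protein that binds transcription factors and also Piezo channels.

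On GRCm38, Cav2 spans chr6:17281185-17289115 and Cav1 spans chr6:17306335-17341452, both on the plus strand and 17.2 kb apart. Tes (chr6:17065149-17105828) lies on the Cav2 side. Met (chr6:17463800-17573980), Capza2 (chr6:17636234-17666972) and St7 (chr6:17692933-17943025) follow on the Cav1 side, and Mdfic (chr6:15720661-15802169) is 1504.2 kb away. All of these are on the plus strand. Gm15581 runs the other way, over chr6:17206823-17385604 on the minus strand, with 1 transcript of 5 exons. Its first exon of 139 bases starts 44.2 kb past the end of Cav1. Its first intron of 170.4 kb holds the whole of Cav1 and Cav2, and exons 2 to 5 lie between Cav2 and Tes, the nearest of them 66.1 kb from the start of Cav2. No exon base of Gm15581 falls on the body of Cav1 or Cav2, so a read in a Cav1 or Cav2 exon does not match its exons on either strand.

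**Figure D1:**
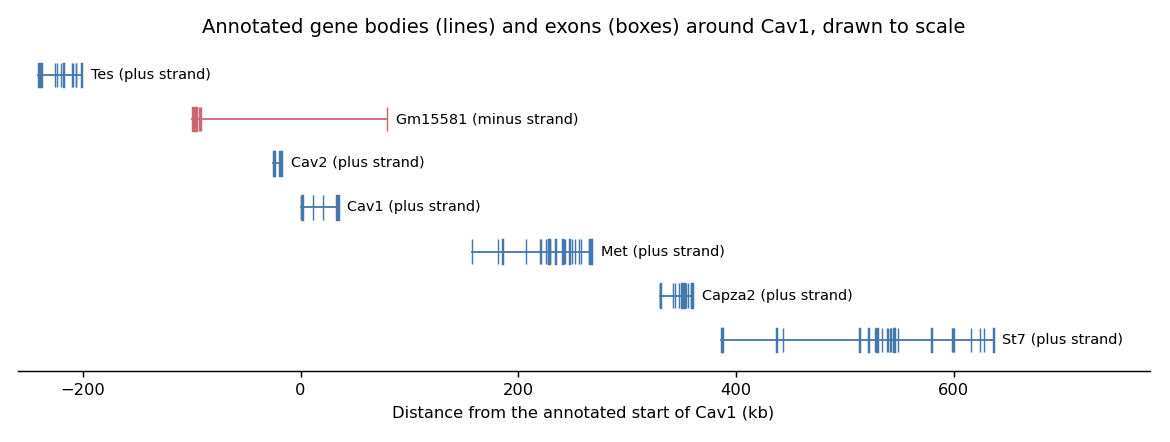
Map of 7 genes of the caveolin locus on GRCm38, with distance from the annotated start of Cav1 in kb on the horizontal axis, lines for gene bodies and boxes for exons. Gm15581, in red, is on the minus strand and its 170.4 kb first intron spans Cav1 and Cav2; Mdfic lies 1504.2 kb away and is not drawn.

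The sequences that mark this arrangement are the start of Gm15581 and the upstream regions of the paired caveolin genes, whose transcripts went in opposite directions between the fetal genotypes. The first exon of Gm15581 (GRCm38, chr6:17385466-17385604, minus strand) is 59.0% G and C:
Gm15581 exon 1: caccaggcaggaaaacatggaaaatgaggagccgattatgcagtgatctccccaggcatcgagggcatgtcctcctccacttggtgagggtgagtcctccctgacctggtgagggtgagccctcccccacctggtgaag
A read that crosses the splice from exon 1 to exon 2 would join both sides of the caveolin genes. Counts per gene do not show whether any read crossed it. The 30 bases on each side of that junction, with exon 2 in capitals, read as follows:
Gm15581 junction: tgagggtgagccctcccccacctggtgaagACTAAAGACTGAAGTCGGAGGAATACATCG
The 250 bases before the first annotated starts of Cav1 (chr6:17306085-17306334) and Cav2 (chr6:17280935-17281184) come from the RefSeq promoter table on GRCm38.p6, plus strand. Capitals mark matches on either strand to 4 motifs, the GC box with the letters GGGCGG, the CCAAT box with the letters of its name, the TATA box with the letters TATAAA and the AP-1 site with the letters TGANTCA:
Cav1: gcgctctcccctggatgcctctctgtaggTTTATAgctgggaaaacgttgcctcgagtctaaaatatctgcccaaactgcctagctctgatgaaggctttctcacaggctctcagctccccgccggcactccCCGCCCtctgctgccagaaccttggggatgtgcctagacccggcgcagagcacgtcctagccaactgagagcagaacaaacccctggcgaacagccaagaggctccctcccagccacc
Cav2: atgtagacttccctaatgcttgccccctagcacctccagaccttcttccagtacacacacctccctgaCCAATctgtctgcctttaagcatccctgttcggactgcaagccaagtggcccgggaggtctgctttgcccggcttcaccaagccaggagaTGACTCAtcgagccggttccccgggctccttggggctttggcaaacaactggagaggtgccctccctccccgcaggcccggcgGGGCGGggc

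The Cav1 window held 1 GC box and 1 TATA box, both on the minus strand and beginning at positions -118 and -221. The Cav2 window held 1 CCAAT box at -182, 1 AP-1 site at -92 and 1 GC box at -9, all on the plus strand. No match overlapped another. Of the 32851 promoter windows of this length in the table, 32.7% held the GC box, 33.8% the CCAAT box, 12.4% the TATA box and 6.75% the AP-1 site. The table matched 7 of the 8 genes, all but Gm15581. The table lists a further start of Cav1, whose window (chr6:17307390-17307639) held none of the 4 motifs. These matches are letters in a window, and no binding was measured.

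Libraries held 14110031 to 20833397 counts, and each fetal KO library (at most 15245283) was shallower than each WT library (at least 19414747). Labels record no batch or date, so a batch and the genotype cannot be told apart. Levels are given as normalised CPM, which are read counts divided by library sizes scaled with TMM. A level of 3 counts, the most that a count of 0 allows, corresponds to 0.143 to 0.206 CPM across libraries and covers counting error only. Fetal WT libraries held 54531 to 60791 counts of Xist, the X-inactivation transcript, and the shallower fetal KO libraries held 66033 to 93272. The fetal genotypes thus do not overlap in Xist, and whether they differ in the makeup by sex was not tested. The week 70 libraries held 7969 and 4 counts of Xist, so the comparison of ages also differs in the makeup by sex. Markers of vessel cells, which carry caveolae, were present in every library, and their levels differed between the groups as given beside Cav1 and Cav2.

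Cav1, the targeted gene, was near 0 in every library labelled KO. WT day 15 replicates 1 to 3 held 367, 218 and 329 of its counts, KO day 15 held 0, 3 and 1, and KO week 70 held 1 and 5. In CPM these were 17.5, 11.1 and 16.9 in WT, at most 0.17 in fetal KO and at most 0.34 at week 70. The groups with and without the gene do not overlap, and no library goes against its label. Scaled to library size, WT held 199 times the Cav1 counts of fetal KO (95% counting interval 77.6 to 734, exact conditional binomial) and 76.4 times those of week 70 KO (35.0 to 209), the latter differing in age as well. The few KO counts do not separate the ages, with a ratio of week 70 to fetal KO of 2.61 (0.619 to 12.6). The fitted log2 fold change at day 15 was -7.43 (SE 0.408), the lowest of the 19147 genes tested. It rests on 4 KO counts, 3 of them in KO replicate 2, and is -8.66 without that library.

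Cav2, 17.2 kb upstream, had more transcript where Cav1 was lost. Its counts were 157, 97 and 129 in WT, 223, 305 and 394 in fetal KO, and 954 and 809 at week 70, or 7.48, 4.95 and 6.63, then 13.3, 16.9 and 22.4, then 61.5 and 55.4 CPM. The lowest fetal KO library stood above the highest WT library, and both week 70 libraries stood above all fetal ones. The mean was 6.35 ± 1.29 CPM in WT, 17.5 ± 4.58 in fetal KO (SD, n = 3 each) and 58.5 ± 4.29 at week 70 (SD, n = 2). On the log2 scale the fetal difference was 1.55 (SE 0.206) and the difference between ages within KO was 1.64 (SE 0.178). At day 15 Cav2 ranked 518 from the top of the 19147 tested genes. Its longest transcript has 37.5% G and C, lower than in all but 2.7% of the genes with a value (19050 of the 19147 tested). With an offset for transcript length and G and C content the fetal difference was 0.72 and the age difference 2.95.

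Gm15581, the gene annotated as antisense around both caveolin genes, had close to 0 counts in WT and held counts in all KO libraries. Counts are per gene and do not show which exons, strand or splice junctions held reads. A spliced transcript across the caveolin genes was therefore not shown. The counts of Gm15581 were 1, 0 and 0 in WT, 42, 54 and 91 in fetal KO, and 13 and 15 at week 70. In CPM these were at most 0.05 in WT, 2.51, 2.98 and 5.18 in fetal KO, and 0.84 and 1.03 at week 70, without overlap between any pair of groups. Per library size, fetal KO held 214 times the WT counts (95% counting interval 38.0 to 8508), resting on 1 WT count, and 3.84 times those of week 70 (2.57 to 5.93). Week 70 KO held 55.8 times the fetal WT counts (9.23 to 2283). The fitted log2 fold change at day 15 was 7.34 (SE 0.636), the highest of the 19147 tested genes, and 9.06 without WT replicate 1, the library with the single count. Between ages within KO it was -2.03 (SE 0.427), and -1.20 with the length and G and C offset. Cav2 and Gm15581 were thus both higher in fetal KO than in WT, while at week 70 Cav2 was higher and Gm15581 lower than in fetal KO.

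A second noncoding gene, D830026I12Rik, lies on the plus strand and shares 465 exon bases with Gm15581 (8.24% of the exon bases of Gm15581). It was named after its values were seen. Its counts were 1, 1 and 0 in WT, 6, 9 and 14 in fetal KO, and 2 and 2 at week 70, too few for a firm level. Fetal KO held 16.6 times the WT counts per library size (95% counting interval 4.20 to 144). Use of strand in the counting is not given in the sources used here, so reads in the shared bases cannot be told apart.

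**Figure D2:**
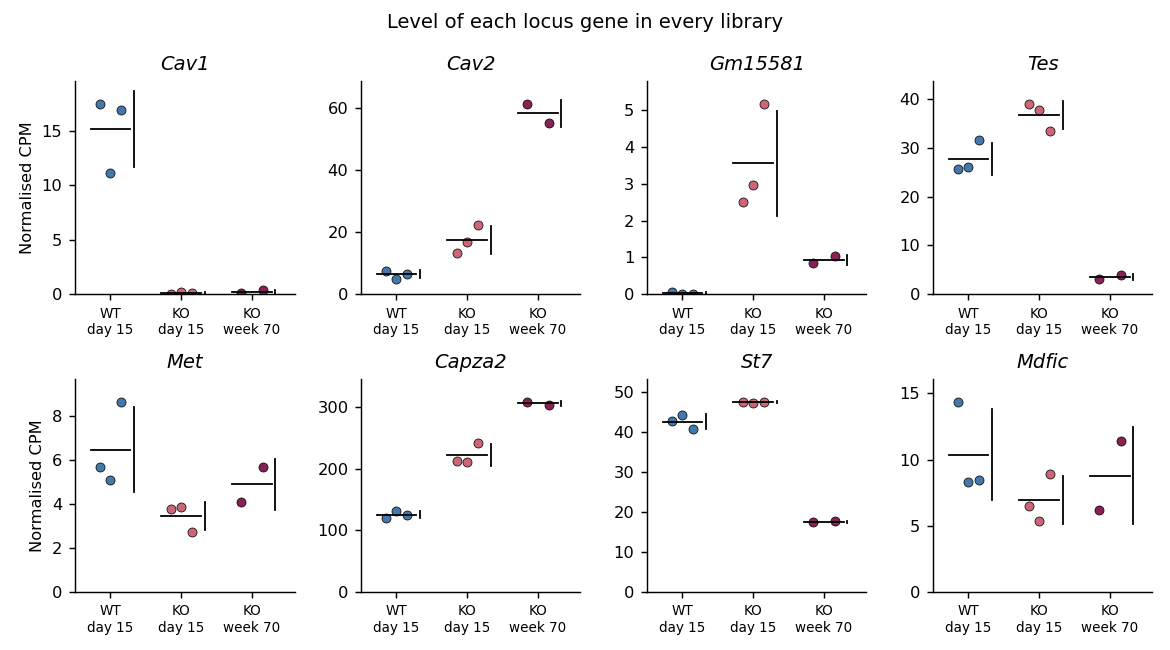
Level of each of the 8 genes in every library, in TMM-normalised CPM on axes that start at 0, with the mean as a horizontal line and 1 SD on each side as a vertical line (n = 3, 3 and 2). Cav1 is near 0 in all KO libraries, Cav2 steps up from 6.35 to 17.5 to 58.5 CPM, and Gm15581 appears in KO libraries, highest at day 15.

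Whole brain mixes cell types, and a lower level of a gene cannot be told apart from fewer of the cells that express it. The summed level of 10 endothelial marker genes, among them Pecam1, Cdh5 and Cldn5, was 215.1 to 298.4 CPM in WT, 68.68 to 87.03 in fetal KO and 384.3 to 429.9 at week 70. Of these markers 9 were tested at day 15, and 8 fell and 0 rose in KO. Between ages all 10 rose in edgeR (adjusted p under 0.05). Over all tested genes, 30.1% were higher and 32.5% lower at day 15, and 37.6% were higher and 44.4% lower between ages. No marker of the endothelial list was at 0 counts in any library. Mural cell markers summed to 144.6 to 191.8 CPM in WT and 128.2 to 139.4 in fetal KO, with 1 of 7 tested markers higher and 5 lower. Fibroblast and meningeal markers summed to 4538, 315.3 and 532.5 CPM in WT replicates 1 to 3 and to 67.83 to 142.8 in fetal KO, with 0 of 7 higher and 5 lower. Most other marker sums were lower in fetal KO as well: microglia 32.51 to 57.97 CPM in WT and 17.52 to 20.05 in KO, astrocytes 172.7 to 212.2 and 82.0 to 96.36, neurons 3159 to 3523 and 1988 to 2031, progenitors 519.3 to 590.8 and 180.9 to 202.4. Among single markers, 1 of 5 tested for microglia rose and 3 fell, and 1 of 4 for astrocytes rose and 2 fell. For neurons 1 of 5 rose and 4 fell, and for progenitors 0 of 4 rose and 4 fell. The oligodendrocyte sums overlapped (64.4 to 73.62 and 65.44 to 69.31), and the erythroid sum was higher in KO (974.9 to 1258 and 3518 to 4347). At week 70 the sums were 12140 to 12430 CPM for oligodendrocytes, 1686 to 1797 for astrocytes, 261.9 to 325.7 for microglia and 7378 to 7613 for neurons. Mural markers then summed to 194.3 to 200.6, fibroblast and meningeal markers to 120.2 to 142.9, progenitors to 124.9 to 127.9 and erythroid markers to 478.9 to 772.3. The part of these cell types in the differences of the locus genes and of the lists below was not tested, in either comparison.

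Relative to the endothelial sum, Cav1 stood at 5.86%, 5.17% and 6.09% in the WT libraries, at most 0.214% in fetal KO and at most 0.0892% at week 70. Cav1 was thus near 0 in KO on this scale as well. Cav2 stood at 2.51%, 2.30% and 2.39% of the endothelial sum in WT, 15.3%, 21.8% and 32.6% in fetal KO, and 14.3% and 14.4% at week 70. The Cav2 transcript was higher in fetal KO per library and, more so, per endothelial marker. On this second scale the week 70 libraries were the lower of the KO groups, opposite to their order in CPM. Gm15581 stood at 2.89%, 3.86% and 7.54% in fetal KO and at 0.195% and 0.268% at week 70. These ratios assume that no other cells carry the transcripts and are given as a description. They also carry no offset for length and G and C content. With that offset the fetal log2 difference of Cav2 was 0.72 in place of 1.55.

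**Figure D3:**
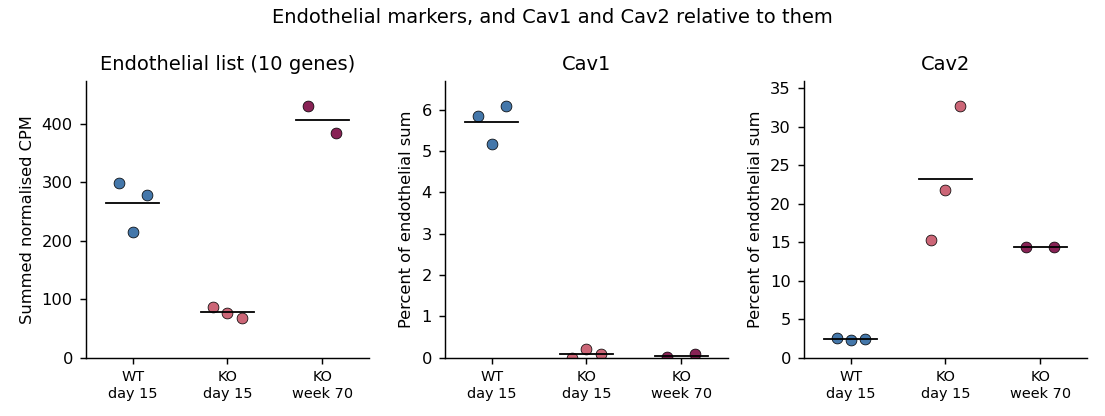
Summed level of 10 endothelial markers in normalised CPM (left), and Cav1 and Cav2 as a percentage of that sum (middle and right), for each of the 8 libraries with group means as lines. The marker sum is lowest in fetal KO, while Cav2 relative to it rises from 2.40% in WT to 23.3% in fetal KO and 14.4% at week 70.

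The flanking genes differed by less than Cav1 and Gm15581 between the fetal genotypes, and by less than Cav2 unless the length and G and C offset was applied, where Cav2 was at 0.72 and Mdfic at -0.75. Capza2, the actin capping subunit, had 119.2, 130.8 and 124.6 CPM in WT, 211.6, 211.5 and 242.0 in fetal KO, and 308.9 and 302.9 at week 70. The 3 groups do not overlap, and the fetal log2 difference was 0.92 (SE 0.0761). Its longest transcript is the poorest in G and C of the 8 genes (36.1%), and with the length and G and C offset the fetal difference was 0.22. Between ages within KO, Capza2 rose by 0.37 (SE 0.0951, edgeR adjusted p 0.00455), a call that was lost with upper-quartile scaling (0.12, adjusted p 0.286, in a range over the alternatives of 2.63e-08 to 0.286). With the length and G and C offset the age difference was 1.68.

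Tes, the focal adhesion gene next to Cav2, had 25.6, 26.1 and 31.6 CPM in WT, 39.1, 37.7 and 33.6 in fetal KO, and 3.03 and 3.97 at week 70. The fetal KO libraries were all above the WT ones, with a log2 difference of 0.49 (SE 0.0967), and the week 70 libraries were far below both. Within KO, Tes fell by 3.49 on the log2 scale between day 15 and week 70 (SE 0.159, edgeR adjusted p 9.18e-09). Tes has 4 similar genes or pseudogenes elsewhere, at 85.4% to 87.3% identity, and shares 144 exon bases with the antisense gene Gm4876. How reads that match several genes were counted is not given in the sources used here, so its level is uncertain to that extent.

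St7, a gene first studied as a candidate tumour suppressor, had 42.8, 44.4 and 40.7 CPM in WT, 47.6, 47.3 and 47.7 in fetal KO, and 17.4 and 17.7 at week 70. Its fetal difference of 0.25 (SE 0.063) was small, although the groups do not overlap. Between ages within KO it fell by 1.54 (SE 0.0985, edgeR adjusted p 1.32e-07). Of its exon bases 10.46% are shared with other annotated genes, among them the antisense gene Gm26738.

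Met, the receptor of hepatocyte growth factor, was lower in fetal KO, with 5.67, 5.05 and 8.64 CPM in WT, 3.77, 3.87 and 2.73 in fetal KO, and 4.06 and 5.69 at week 70. The fetal groups do not overlap, and the log2 difference was -0.81 (SE 0.235), or -0.52 with the length and G and C offset. The difference of 0.40 between ages did not pass the test (SE 0.271, edgeR adjusted p 0.196), nor did it in any of the 14 alternatives, where the adjusted p ran from 0.0539 to 0.641. Mdfic, the most distant gene, had 14.4, 8.32 and 8.43 CPM in WT and 6.52, 5.36 and 8.93 in fetal KO, and is the only one of the 8 whose fetal groups overlap. Its fetal log2 difference was -0.49 (SE 0.245) and was -0.75 with the length and G and C offset and -0.20 without WT replicate 1, the library that also held the highest sum of fibroblast and meningeal markers. At week 70 Mdfic stood at 6.19 and 11.4 CPM, and the age difference of 0.24 did not pass the test (SE 0.292, edgeR adjusted p 0.465). It passed in 3 of 14 alternatives (adjusted p 0.0301 to 0.956), among them without week 70 replicate 1 (0.62), and turned to -0.25 without week 70 replicate 2.

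All 8 genes passed the filter on low counts at day 15, Cav1 only through its WT libraries and Gm15581 only through its KO libraries. At an edgeR adjusted p under 0.05, the rule used throughout, 7 of the 8 were past the threshold at day 15 (5 higher, 2 lower), beside 62.6% of all 19147 genes tested (30.1% higher, 32.5% lower). The same number had fetal groups that do not overlap in CPM (5 higher, 2 lower), beside 68.5% of all tested genes (29.7% higher, 38.7% lower). Since the genes were chosen with this contrast known, the shares are set side by side only. Between ages 7 passed the filter, all but Cav1. Cav2 and Gm15581 carry no test there, since their values at the later age were already known. Of Tes, Met, Capza2, St7 and Mdfic, Capza2 was past the threshold and higher, and Tes and St7 were past it and lower. Of all 20000 genes tested between ages, 82% were past the threshold (37.6% higher, 44.4% lower). The median log2 difference over all tested genes was 0.03 at day 15 and -0.19 between ages. Both comparisons use the fetal KO libraries, so their differences are not independent of each other.

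**Figure D4:**
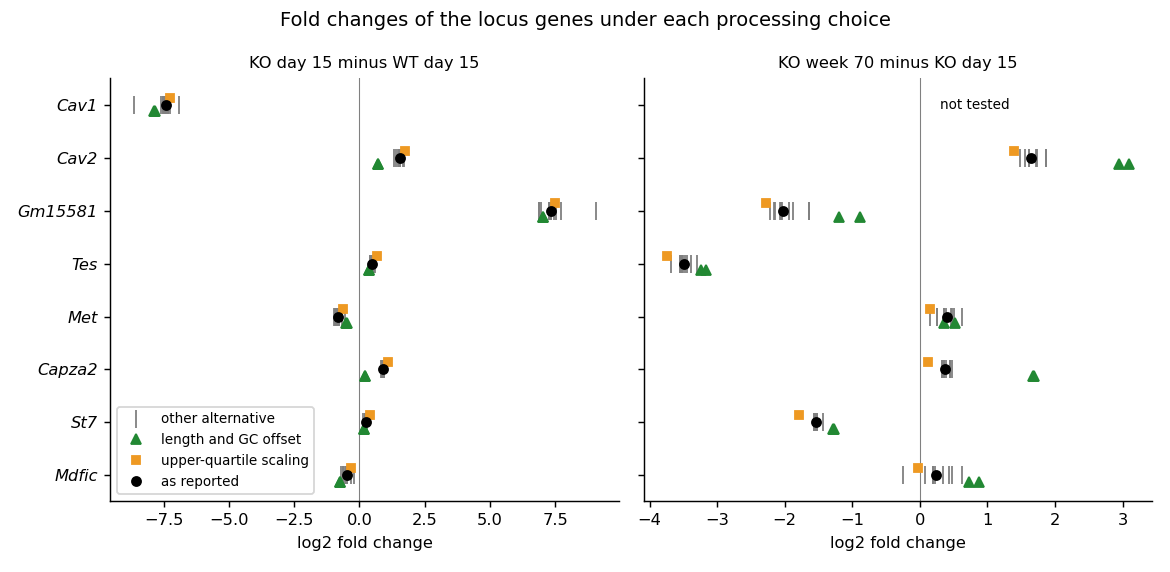
Log2 fold change of each of the 8 genes as reported (black circles) and under every processing alternative (green triangles with the length and GC offset, orange squares with upper-quartile scaling, grey bars otherwise), for genotype on the left and age within KO on the right. At day 15 the genes keep their direction, while the offset moves Cav2 from 1.55 to 0.72 and Capza2 from 0.92 to 0.22; Mdfic crosses 0 between ages.

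Levels of different genes were compared per exon length, as CPM per kilobase of the union of all annotated exons (RPKM). That union is 9042 bases for St7, 6835 for Tes and 3444 for Cav1, while their longest transcripts have 4094, 3790 and 2746 bases. The orders and ties below are those for the union, and they can change with another length. In WT, Capza2 was the highest at 21.2 ± 0.987 RPKM. St7 (4.72 ± 0.204), Cav1 (4.41 ± 1.02) and Tes (4.06 ± 0.484) came next and did not differ beyond their spread (SD, n = 3). Cav2 at 1.91 ± 0.386 and Mdfic at 1.40 ± 0.467 also overlapped in spread. Met (0.840 ± 0.250) had the lowest mean of the protein-coding genes, though its spread overlapped that of Mdfic. Cav1 RNA thus stood above Cav2 RNA in WT fetal brain. In fetal KO, Capza2 was again first at 37.6 ± 2.99 RPKM, and Tes (5.38 ± 0.418), Cav2 (5.26 ± 1.37) and St7 (5.26 ± 0.0240) stood together behind it. Mdfic (0.934 ± 0.246) and Gm15581 (0.631 ± 0.252) were within each other's spread, as were Gm15581 and Met (0.450 ± 0.0819), and Cav1 was last at 0.0215. At week 70, Cav2 was second at 17.5 ± 1.29 RPKM behind Capza2 at 51.9 ± 0.713, and far above St7 at 1.94 ± 0.0212 (SD, n = 2). Tes was then at 0.512 ± 0.0977, within the spread of Met at 0.635 ± 0.150, and Gm15581 at 0.165 ± 0.0238 and Cav1 at 0.0591 came last.

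The genes whose levels ran most like those of Cav1 over the 8 libraries, by Pearson's r of log2(CPM + 1) among 16864 genes, were Col4a1 (r = 0.998), Neo1 (0.997) and Patz1 (0.997). Col4a1, a basement membrane collagen chain made by vessel cells, stood at 242.1 to 395.7 CPM in WT and at 25.5 to 30.6 in all KO libraries of both ages. Like Cav1 it was high in the WT libraries, all of them fetal, and low in the KO libraries of both ages. No WT library of week 70 was analysed, so genotype and age cannot be told apart at that age. For Cav2 the nearest were Oip5os1 (0.996), Dalrd3 (0.993) and Gng11 (0.993), and Oip5os1, a noncoding RNA, stepped up from 274.3 to 284.8 CPM in WT to 376.6 to 468.4 in fetal KO and 675.8 to 715.5 at week 70. For Gm15581 they were Cops2 (0.997), Mob4 (0.996) and Zfp120 (0.992), and Cops2, a subunit of the COP9 signalosome, stood at 81.7 to 84.0 CPM in WT, 153.2 to 186.1 in fetal KO and 105.8 to 116.1 at week 70. The lowest of these r was 0.987 with any 1 library left out, while with upper-quartile scaling that of Dalrd3 was 0.892 and with RLE scaling 0.946. Libraries of a group share their group's level, so these values describe 3 group patterns over 8 points and carry no test.

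The surrounding region was taken by position alone, as all genes within 5 Mb of Cav1 other than the 8. Of 103 annotated genes 52 were in the table and 25 were tested at day 15. In edgeR 17 of them (68%) passed the threshold, 14 higher and 3 lower in KO, beside 62.6% of all tested genes (30.1% higher, 32.5% lower). The median log2 difference of the 25 was 0.65 against 0.03 over all genes. With the length and G and C offset, 14 passed, 8 of them higher. Of the 15 protein-coding genes tested in the window 9 passed (60%), beside 66.3% of all protein-coding genes, with medians of 0.27 and -0.12. The largest absolute log2 difference among the 25 was 1.84, or 2.91 without WT replicate 2, below the size of those of Cav1 and Gm15581. It was above the 1.55 of Cav2, as was the 1.72 of Gm42583. With the length and G and C offset Gm42583 was at 1.48 and Cav2 at 0.72.

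Within 1 Mb of Cav1, 4 further genes were tested at day 15 and 3 of them rose, beside 30.1% of all tested genes. The counts of Gm4876, antisense to Tes, were 41, 44 and 43 in WT and 59, 75 and 69 in fetal KO, a log2 difference of 0.94 (edgeR adjusted p 0.0015). Gm43844 differed by 0.75 (adjusted p 0.00338) and the pseudogene Gm15596 by 1.14 (adjusted p 0.00261). With the length and G and C offset the calls of Gm4876 (0.30) and Gm15596 (0.22) were lost, and with the replicate block as well that of Gm43844 (0.49). For Cftr, a chloride channel gene, the WT libraries held 37, 25 and 15 counts and the fetal KO libraries 19, 34 and 59, and it did not pass (0.83, adjusted p 0.104), though it did in 1 of 15 alternatives, without fetal KO replicate 1 (adjusted p 0.0342 to 0.502). The largest differences in the whole window at day 15 were those of 5330437M03Rik (1.84, adjusted p 0.0152), Gm42583 (1.72, adjusted p 5.34e-05) and 2610001J05Rik (1.26, adjusted p 4.82e-06), all more than 3 Mb from Cav1. The call of 5330437M03Rik was lost without fetal KO replicate 1 (1.75) and with the offset (1.21), and its difference was 2.91 without WT replicate 2, with WT counts of 4, 11 and 1.

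**Figure D5:**
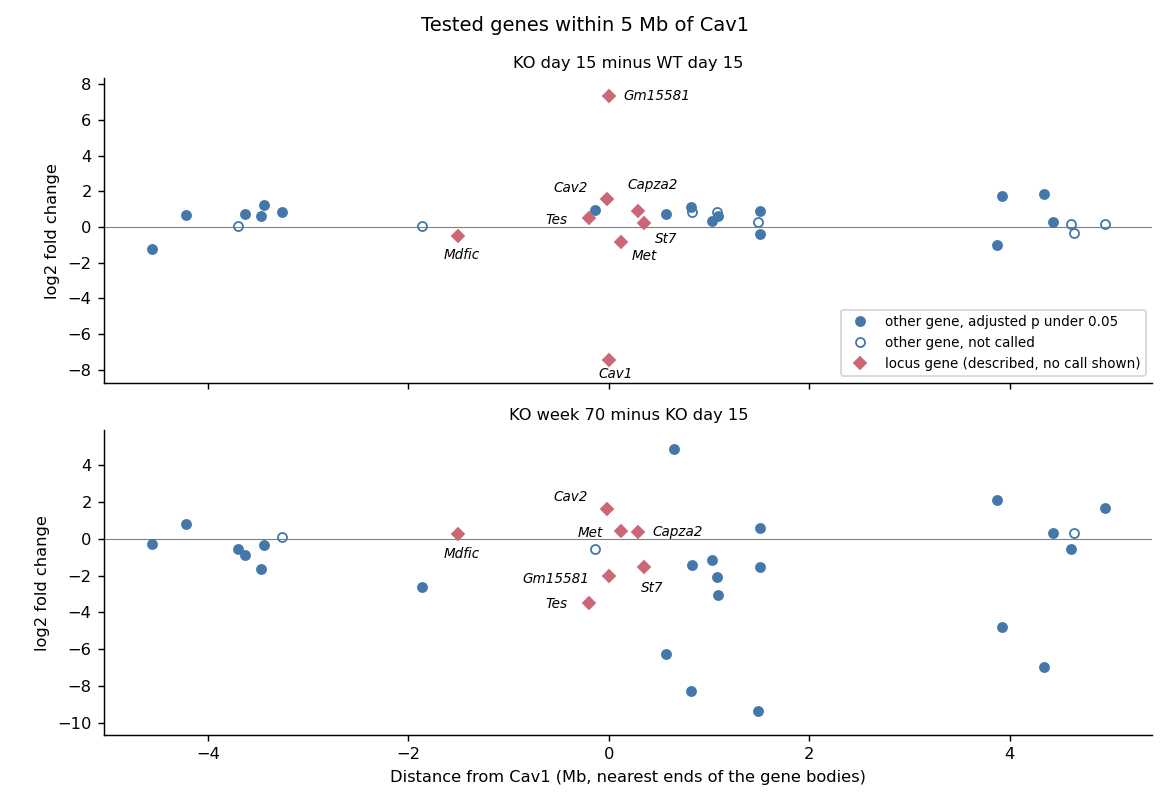
Log2 fold change of every tested gene within 5 Mb of Cav1 against distance from Cav1 in Mb, for genotype at day 15 (top) and age within KO (bottom), with the 8 named genes as red diamonds and other genes as filled circles where the edgeR adjusted p was under 0.05. At day 15 Cav1 and Gm15581 stand far from the other genes, which lie within 1.84 of 0; between ages several noncoding genes fall further.

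Between ages within KO, 26 window genes were tested and 23 passed (88.5%), 6 higher and 17 lower at week 70. Of all tested genes 82% passed (37.6% higher, 44.4% lower). The median log2 difference of the window genes was -0.74 against -0.19 over all genes. With the length and G and C offset 20 window genes passed, 10 of them higher. Wnt2, a secreted Wnt ligand 647 kb from Cav1, had 4, 3 and 1 counts in fetal KO and 71 and 81 at week 70 (log2 difference 4.89, edgeR adjusted p 2.39e-06). Its fetal WT counts were 26, 3 and 2, the first in the library with the highest sum of fibroblast and meningeal markers, and it was not tested at day 15. The largest differences were those of the pseudogenes Gm5874 and Gm15596 and of 5330437M03Rik, all at 0 counts in both week 70 libraries, against 81 to 88, 30 to 45 and 14 to 17 counts in fetal KO. Their adjusted p were 1.35e-06, 2.56e-05 and 0.000344, and their fitted folds are no bound. Gm43844 fell from 82 to 107 counts to 0 and 2 (adjusted p 2.48e-06), and Cftr fell by 1.45 (adjusted p 0.0231), a call made in 10 of 14 alternatives (adjusted p 0.00826 to 0.617) and lost, among others, without fetal KO replicate 3.

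Genes related in function to the locus genes were taken from 5 short lists. Of the other caveola genes, the cavins with Pacsin2 and Ehd2, 6 were tested at day 15 and 0 rose and 4 fell, with a median log2 difference of -0.78 against 0.03 over all genes. The share of all tested genes that passed was 62.6% at day 15 (30.1% higher, 32.5% lower) and 82% between ages (37.6% higher, 44.4% lower), and the counts of each list stand beside these shares. Cavin1, the main coat protein beside caveolin 1, went from 37.1 ± 16.8 CPM in WT to 6.90 ± 1.49 in fetal KO (SD, n = 3 each), a difference of -2.33 (edgeR adjusted p 4.04e-05), or -1.68 with the length and G and C offset. Between ages 5 rose and 1 fell, with a median of 2.32, led by Cavin1 at 44.9 ± 0.902 CPM (2.60, adjusted p 7.7e-08, and 1.76 with the offset). The gene that fell was Cavin4, the muscle cavin (-3.21, adjusted p 6.39e-06). The direction of this list at day 15 was known from earlier results of these data. The endothelial, mural and fibroblast sums given above were also lower in fetal KO, as were those of microglia, astrocytes, neurons and progenitors, and their part was not tested.

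Of 12 tested genes of hepatocyte growth factor and MET signalling, 0 rose and 6 fell at day 15, beside 62.6% of all tested genes past the threshold (32.5% lower), with a median of -0.64. The largest fall was that of Gab1, the docking protein of the activated receptor, from 54.9 ± 4.02 to 14.4 ± 1.06 CPM (-1.84, edgeR adjusted p 4.28e-08). With the length and G and C offset the difference of Gab1 was -1.27. Hgf itself, the ligand, stood at 0.812 ± 0.396 CPM in WT and 1.48 ± 0.374 in fetal KO and did not pass (0.95, adjusted p 0.0541). It passed in 2 of 15 alternatives, where its adjusted p ran from 0.028 to 0.483. Between ages 6 rose and 3 fell, beside 82% of all genes past the threshold, with a median of 0.45. Hgf rose to 7.28 ± 1.19 CPM at week 70 (2.19, adjusted p 4.07e-05, and 3.09 with the length and G and C offset) and Gab1 to 55.3 ± 6.28 (1.84, adjusted p 8.53e-08, and 1.28 with the offset). Spint1, an inhibitor of the protease that activates the ligand, had the largest rise (3.05, adjusted p 0.000246), from 0.379 to 3.42 CPM, and Hgfac, that protease, was at 0 counts in both week 70 libraries (adjusted p 8.56e-05).

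Of 9 tested genes of the actin capping list 2 rose and 2 fell at day 15, beside 62.6% of all tested genes past the threshold, and the median was -0.06. Capza1, the paralogue of Capza2, rose in fetal KO, from 61.4 ± 2.18 to 85.8 ± 10.2 CPM (0.57, edgeR adjusted p 0.000175). With the length and G and C offset the rise of Capza1 was 0.22. Capzb, the beta subunit that pairs with either alpha subunit, stood at 144.3 ± 2.48 and 129.3 ± 5.99 CPM and did not pass (-0.07, adjusted p 0.29). Between ages Capza1 fell by 1.21 (adjusted p 5.15e-06, and -0.64 with the offset), while Capzb rose to 271.4 ± 2.49 CPM (0.97, adjusted p 1.14e-06), as Capza2 did by 0.37. Carmil2, a regulator of capping protein, fell by 0.39 at day 15 (adjusted p 0.00402), a call lost with upper-quartile scaling (-0.22) and a direction that the length and G and C offset turned (0.49), and rose by 1.99 between ages (adjusted p 3.05e-08, and 0.85 with the offset). Carmil3 fell by 2.88 between ages (adjusted p 6.48e-09, and -4.08 with the offset). In all 4 rose and 4 fell between ages, beside 82% of all genes past the threshold, with a median of -0.05.

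All 8 genes of the focal adhesion list fell in fetal KO, where Tes was higher, beside 62.6% of all tested genes past the threshold and 32.5% lower. Their median was -0.73 against 0.03 over all genes. The list holds focal adhesion genes, and not all of their products are known to bind testin. Zyx, for zyxin, which binds testin, fell the most, from 54.9 ± 5.17 to 15.4 ± 1.20 CPM (-1.74, edgeR adjusted p 8.76e-08, and -1.18 with the length and G and C offset). Between ages 3 rose and 4 fell, beside 82% of all genes past the threshold, with a median of -0.25. Zyx rose to 59.1 ± 2.54 CPM (1.84, adjusted p 4.37e-08, though smaller with the length and G and C offset), while Lpp, its relative, fell by 1.35 (adjusted p 0.000138), a call lost with the length and G and C offset (-0.29). These genes are also active in vessel and fibroblast cells, whose marker sums were lower in fetal KO, and that part was not tested.

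Of the 4 relatives and partners of Mdfic and St7, 1 rose and 2 fell at day 15 (62.6% of all tested genes passed), with a median of -0.98. Piezo1, the mechanically gated channel that the Mdfic protein binds, went from 20.2 ± 6.11 to 6.08 ± 0.871 CPM (-1.64, edgeR adjusted p 5.1e-05). With the length and G and C offset this was -0.47, and with the replicate block as well the call was lost (adjusted p 0.0727, in a range over the alternatives of 2.67e-15 to 0.0727). St7l, the paralogue of St7, rose from 28.2 ± 2.72 to 34.9 ± 1.53 CPM (0.40, adjusted p 0.00301). Between ages 1 rose and 2 fell (82% of all tested genes passed), with a median of -1.14. The riser was Piezo1 (0.58, adjusted p 0.0221), a call made in 7 of 14 alternatives (adjusted p 0.00525 to 0.151), lost without fetal KO replicate 1 or 3 or week 70 replicate 2, and turned to -0.41 with the length and G and C offset. Mdfi, the paralogue of Mdfic, fell from 5.20 ± 0.867 to 0.639 ± 0.356 CPM (-3.12, adjusted p 2.64e-05, and -4.03 with the offset), and St7l did not pass (-0.19, adjusted p 0.106), though it did in 1 of 14 alternatives, upper-quartile scaling (adjusted p 0.00266 to 0.593).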

How the data were processed

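Per the labels' protocols, polyadenylated RNA was captured with poly-T beads, fragmented and copied from random primers. The values deposited are raw counts of reads for each Ensembl identifier, with 1 column per library, per the file headers. The submitters' processing notes name FastQC, cutadapt, Trimmomatic, HISAT2, featureCounts and edgeR, and the builds GRCm38 and GRCm39, without saying which build was used for which step. The handling of strand and of reads that match several genes is not given in the sources used here. Positions and lengths come from GENCODE release M 21 on GRCm38, which holds 97.28% of the table's identifiers, and 351 unnamed genes stayed in the tests. Similar copies were found with minimap2 2.31 (at least 200 bases at 85% identity).

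The fits used edgeR 4.0.16 in R 4.3.3: filterByExpr by group, TMM scaling and quasi-likelihood F-tests (two-sided) with Benjamini-Hochberg adjustment over all tested genes. Genotypes were compared over the 6 fetal libraries and ages over the 5 KO libraries. CPM and RPKM were computed from the counts with TMM sizes over all 8 libraries, and SE are those implied by the F statistic. Alternatives were RLE and upper-quartile scaling, other filters, DESeq2 1.42.0, all 8 libraries in one fit, a length and GC offset smoothed with mgcv 1.9.3, a block for the replicate number, leaving out each library, and a window of 2 Mb. The r values under other scalings and with libraries left out were added after seeing the data. On simulated fetal counts (18769 genes, 200 with a log2 change of 1) edgeR recovered 63% of the changed genes, with 11.89% of 143 calls false. For the comparison of ages it recovered 68%, with 9.33% of 150 calls false. Both false shares were above the threshold of 0.05. The simulations changed 200 genes each, while 62.6% and 82% of tested genes were called in the data. The simulated rates therefore do not carry over to the data.

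The 8 genes, the 5 partner lists and the 9 marker lists were chosen with earlier results of these data known. Adjusted p are given for Tes, Met, Capza2, St7 and Mdfic in the comparison of ages and for no member at day 15. Beyond the members, the text names the tested genes within 1 Mb of Cav1, the 3 called window genes with the largest absolute difference in each comparison, and of each partner list the called genes with the largest rise and fall. It also names Hgf, Capza1, Capzb and St7l, and the 3 genes most like each of Cav1, Cav2 and Gm15581 by r, among genes averaging 20 counts or more. No library was a copy of another.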

Additional observations from a re-analysis of the deposited data

How the results depend on the processing

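The counts of called genes stayed within 1.5 times the reported ones in all alternatives: 8813 to 12542 at day 15 (reported 11993) and 13910 to 18622 between ages (reported 16390). With 1 library left out they ran from 10998 to 11365 and from 15534 to 16923, and the window counts from 15 to 18 and from 19 to 25. A window of 2 Mb holds fewer genes, with 7 called of 11 at day 15 and 11 of 12 between ages. Upper-quartile scaling moved the median of all genes to 0.20 at day 15 and -0.44 between ages, and 7627 of its 12542 fetal calls were higher, against 5768 of 11993. Under it Carmil3 (0.11) and Capzb (0.10) reversed at day 15, and Mdfic (-0.02) between ages. With the length and GC offset, at day 15, Gm5874 (-0.38), Carmil2 (0.49) and Carmil3 (0.94) reversed, and between ages Gm4876 (0.34), 2610001J05Rik (0.42), St7l (0.07) and Piezo1 (-0.41). Replicate numbers did not pair the libraries: same-numbered fetal libraries had correlations of deviations of -0.148, -0.175 and -0.159, and those of the 2 ages 0.035 and 0.010. With the replicate block, 11184 and 14876 genes and 16 and 18 window genes were called, and fetal KO replicate 3 had no partner at week 70. With the block and the offset together the reversed values were -0.35 for Gm5874, 0.49 for Carmil2, 0.94 for Carmil3 and 0.06 for Mdfi at day 15, and 0.32 for Gm4876, 0.45 for 2610001J05Rik, 0.07 for St7l and -0.45 for Piezo1 between ages. Leaving out a library reversed Hgfac at day 15 (-0.01 without fetal KO replicate 3, in a range of -0.01 to 0.40) and Mdfic between ages (-0.25 without week 70 replicate 2, in a range of -0.25 to 0.62). Of 897 log2 differences of genes named singly, 825 kept direction and, where tested, call, 26 lost the call, 10 gained it, 20 reversed and 16 untested ones moved beyond the replicate spread. Of 90 values of r, 7 moved by more than their range with 1 library left out. The cause of these changes was not tested. With 2 libraries at week 70 and few counts of Cav1 and Gm15581 where they were near 0, their ratios are known to wide intervals only.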

Other observations

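Other genes of the 5 Mb window, chosen after their values were seen, include several with known parts in the brain. Foxp2, a transcription factor of striatal and deep cortical neurons, stood on the Tes side and differed by 0.08 between the fetal genotypes (edgeR adjusted p 0.478), while it fell by 2.61 between ages within KO (adjusted p 5.44e-07). Kcnd2, which codes for a channel of the A-type potassium current, fell by 1.02 in fetal KO (adjusted p 1.28e-05) and rose by 2.13 between ages (adjusted p 2.39e-08). Gpr85, an orphan receptor of neurons, rose by 0.65 in fetal KO (adjusted p 4.79e-06) and fell by 1.63 between ages (adjusted p 3.12e-08). Lsm8, a subunit of the ring that binds U6 RNA, rose by 0.89 in fetal KO (adjusted p 8.96e-06) and fell by 1.52 between ages (adjusted p 1.11e-07). Tmem106b, for a lysosomal membrane protein, was higher in both comparisons (0.67, adjusted p 1.62e-05, and 0.82, adjusted p 1.51e-05). The comparisons share the fetal KO libraries.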
